A study of Mus musculus with 12 samples.

Results

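The liver transcriptome of S302A knock-in mice was compared with that of wild-type mice, all treated with diethylnitrosamine (DEN), using 6 of the 12 deposited libraries. These were S302A_DEN replicates 1 to 3 and WT_DEN replicates 1 to 3, chosen by their labels. S302A is an engineered allele of Celf1, the gene of the RNA-binding protein CUGBP1, in which a serine is replaced by alanine. All 6 libraries came from livers of male C57BL6 mice that had been injected with DEN, a liver carcinogen activated by hepatocyte cytochromes, when 3 weeks old, the dose being 50 µg per g. Livers were taken 30 to 38 weeks after the injection, at 33 to 41 weeks of age. The other 6 libraries, 3 from untreated wild-type (WT_Ctrl) and 3 from untreated knock-in livers (S302A_Ctrl) of the same strain, sex and age range, served as a separate comparison of the genotypes. Values were TPM, the length-scaled relative level of a transcript, which keeps no sequencing depth, with a lowest listed value of 1 that was read as 1 or less. Tests were run on 11558 of 31253 symbols, those above 1 TPM in at least 3 of the 6 DEN libraries, and 17581 symbols stood at 1 in all 6.

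CUGBP1 binds GU-rich stretches of RNA and acts on splicing, translation and decay of its target mRNAs. Its phosphorylation at the serine concerned has been linked to translational control in liver, and the series was made to follow the protein in fatty liver and DEN-induced liver cancer. In transcript Celf1-203, which encodes a 486-residue isoform, the codon numbered as in S302A reads AGC, for serine. It lies on chromosome 2 at 91009216 to 91009218 (GRCm38, plus strand), in exon 10 of 14. The numbered isoform is not named in the labels, and other isoforms have glutamine or proline at this position. The reference coding sequence around it, the codon in capitals, shows the residue that the allele changes:

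Celf1-203: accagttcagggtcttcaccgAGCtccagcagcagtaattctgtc

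TPM does not show a changed codon, so the level of Celf1 does not check the labels. Celf1 stood at 13.5, 12.6 and 11.4 TPM in WT_DEN replicates 1 to 3 and at 20.6, 19 and 23.8 in S302A_DEN replicates 1 to 3. The groups did not overlap. The log2 difference without replicate 3 was 0.63 ± 0.16 (SE) and did not pass (limma adjusted p = 0.0693), but passed upward once libraries were scaled by median of ratios.

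S302A_DEN replicate 3 stood apart, so each comparison was made with it and without it. It lay above both other S302A_DEN replicates for 10186 of 11558 genes and below both for 621. A principal component that held 67.1% of the variance of the 6 libraries separated it from the other 5. After median-of-ratios scaling the counts were 4794 above and 4822 below. The labels give no second preparation, date or dissection for this library. The labels also do not say that replicates were separate animals, and if they were not, the p-values cover a spread that may be technical. In bulk liver, fewer cells of a type and less RNA per cell cannot be told apart. All 16 hepatocyte marker genes were above 1 TPM in each DEN library. Their summed level was 137444 to 152479 TPM in WT_DEN, 106403 and 103310.0 in S302A_DEN replicates 1 and 2, and 85063 in replicate 3. In untreated livers it was 76166 to 115777 TPM in WT_Ctrl and 86622 to 97545 in S302A_Ctrl. The knock-in DEN libraries thus lay within the span of the untreated libraries and WT_DEN above it.

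With all 6 libraries, 4 genes passed at an adjusted p below 0.05 (limma; 0.0346% of tested genes), 2 higher and 2 lower in the knock-in, and 597 had an unadjusted p below 0.05 (5.17%). Without replicate 3, 478 genes passed (4.14%), 70 higher (0.606%) and 408 lower (3.53%). The median difference over all genes in this fit was -0.21 on the log2 scale, and median-of-ratios scaling, which brought it to 0.00, gave 92 higher (0.796%) and 137 lower calls (1.19%). Of the 408 lower calls 137 held under that scaling, and of the 70 higher calls 55 did. The lower calls thus outnumbered the higher ones under both scalings, by a margin that the scaling set. TPM is relative, so a larger share for some genes lowers the values of all others. The major urinary protein (Mup) genes summed to 35030 to 89654 TPM in WT_DEN and to 193140 and 243989 in S302A_DEN replicates 1 and 2. Their part in the excess of lower calls was not tested. The count without replicate 3 fell to 19 when S302A_DEN replicate 2 was left out as well, and lay between 75 and 154 when any other single library was left out. The plot of calls by setting shows these counts. In the fits that also left out S302A_DEN replicate 1 or 2, a single knock-in library remained.

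**Figure D1:**
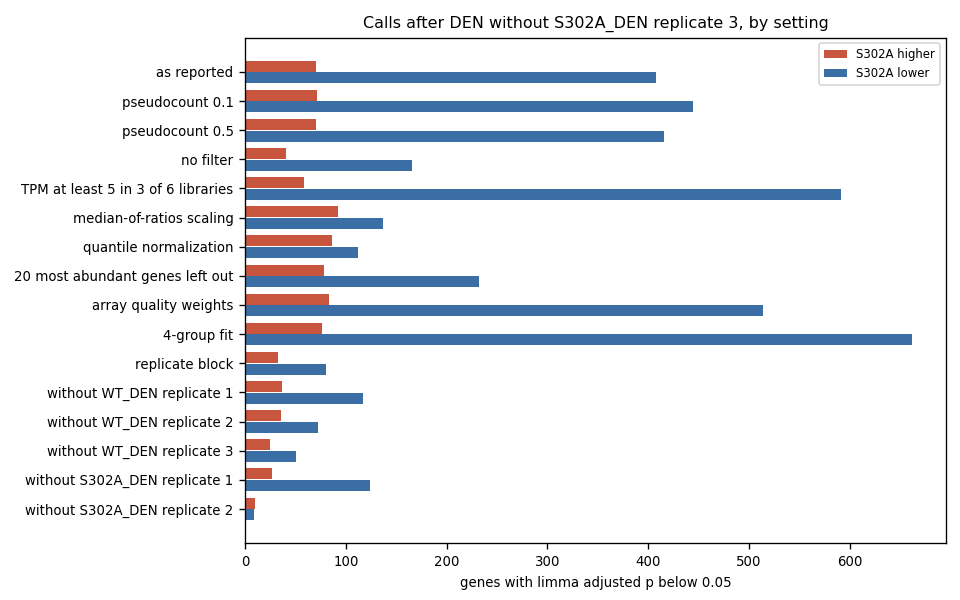
Number of genes with limma adjusted p below 0.05 (x axis) in the comparison of S302A_DEN replicates 1 and 2 with WT_DEN replicates 1 to 3, for the reported fit and each alternative (y axis). Red bars are genes higher in the knock-in and blue bars genes lower; the reported fit gave 70 and 408, and median-of-ratios scaling 92 and 137.

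The 4 genes that passed with 6 libraries were Gbp11, AK220016, AB343393 and AB343394. Gbp11, of the interferon-inducible guanylate-binding family and annotated as a polymorphic pseudogene (chromosome 5, 105323042 to 105346472, minus strand), stood at 17.9, 14.5 and 14.5 TPM in WT_DEN. It stood at 1.40, 1.66 and 2.21 in S302A_DEN, a log2 difference of -2.60 ± 0.30 (adjusted p = 0.0297). AK220016, a cDNA symbol, stood at 244, 557 and 336 TPM against 5.93, 1 and 1 (-6.89 ± 0.52, adjusted p = 0.00222). AB343393 and AB343394 held identical values in every library, at 1 in all WT_DEN replicates and at 9.95, 8.13 and 13.9 TPM in S302A_DEN (2.52 ± 0.30, adjusted p = 0.0297). In untreated livers the order of these 3 symbols was the other way round. AK220016 stood at 1.90, 1 and 93.3 TPM in WT_Ctrl and at 308, 225 and 203 in S302A_Ctrl, and AB343393 at 12.8, 4.85 and 7.69 and at 1 in all 3. Without any 1 of the WT_DEN replicates the calls of Gbp11, AB343393 and AB343394 ended, and Gbp11 also without S302A_DEN replicate 1 or 2 (adjusted p up to 0.312). Without a filter all 4 ended, AK220016 at an adjusted p of up to 0.135.

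The genes of fatty acid oxidation stood lower in S302A_DEN replicates 1 and 2 than in WT_DEN. These genes encode the enzymes that carry fatty acids into mitochondria and peroxisomes and break them down to acetyl-CoA and ketone bodies. PPAR-alpha, a nuclear receptor activated by fatty acids, drives many of them in hepatocytes. Of 24 listed genes all 24 were lower (median -0.80), against 9120 of 11558 over all genes (median -0.21), and 14 passed downward and 0 upward, beside 3.53% of all genes. After median-of-ratios scaling 23 of 24 were lower (median -0.55) and 7 passed downward, beside 1.19% of all genes. With replicate 3 the list had 20 lower and 4 higher (median -0.53) and 0 passed. In untreated livers its median was 0.04.

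Cyp4a10 and Cyp4a14, neighbours on chromosome 4 (115518264 to 115533649, plus strand, and 115486200 to 115496142, minus strand), encode fatty acid omega-hydroxylases and share much sequence, so that reads may be split between them. Cyp4a10 stood at 91.9, 186 and 137 TPM in WT_DEN and at 1.88, 4.09 and 41.6 in S302A_DEN. The groups did not overlap, but replicate 3 lay much nearer the wild type than the other 2. The log2 difference without replicate 3 was -5.13 ± 0.34 (adjusted p = 0.00168), and with it -3.97 ± 0.83 (adjusted p = 0.214). Cyp4a14 stood at 72.7, 72.7 and 35.4 TPM against 1, 1 and 41.8. Replicate 3 fell inside the wild-type range, and the call (adjusted p = 0.00168) rested on the 2 libraries listed at 1. In untreated livers Cyp4a10 stood at 72.9 to 107 TPM in WT_Ctrl and at 46.3 to 124 in S302A_Ctrl, which overlapped.

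Peroxisomal enzymes showed the same order. Acaa1b, a peroxisomal thiolase, stood at 1008, 1070.5 and 976 TPM in WT_DEN and at 241, 151 and 701 in S302A_DEN (-2.41 ± 0.21, adjusted p = 0.00455). Ehhadh, the bifunctional enzyme of the same pathway, stood at 107, 103 and 92.6 against 36.3, 31.3 and 104 (-1.55 ± 0.15, adjusted p = 0.00553). Ppara itself stood at 29.9, 42.0 and 51.4 against 23.3, 21.6 and 24.2 TPM and did not pass (adjusted p = 0.0928). The Acaa1b and Cyp4a10 calls held under every alternative without replicate 3, while those of Cyp4a14 and Ehhadh ended without S302A_DEN replicate 2 (adjusted p up to 0.0744).

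The fatty acid oxidation list was itself written with earlier results of these data known, and it shares Cyp4a10 and Cyp4a14 with the next list. A wider list of PPAR-alpha targets, drawn up after the values were seen and therefore only a description, held 41 tested genes. Of these 40 were lower without replicate 3 (median -1.13), against 9120 of 11558 over all genes, and 26 passed downward, beside 3.53%. Under median-of-ratios scaling 16 passed downward, beside 1.19% of all genes. The list included the acyl-CoA thioesterases of chromosome 12, which release fatty acids from CoA. Acot1 stood at 10.9, 37.7 and 29.3 TPM in WT_DEN and at 1.52, 1.78 and 13.8 in S302A_DEN (-3.19 ± 0.46, adjusted p = 0.0192). Acot3 stood at 5.42, 18.1 and 17.6 against 1, 1 and 2.17 (-2.72 ± 0.46, adjusted p = 0.0298), and Acot4 at 11.7, 15.5 and 15.7 against 1.64, 2.34 and 11 (-2.35 ± 0.20, adjusted p = 0.00455). These genes are close copies, and the split of reads among them is uncertain. Retsat, a retinol saturase, stood at 240.4, 301 and 265 against 63.3, 76.2 and 128 TPM (-1.93 ± 0.16, adjusted p = 0.00443), with no overlap over all 6 libraries. Aldh3a2, a fatty aldehyde dehydrogenase, stood at 140.2, 125 and 134 against 32.1, 24.1 and 227 (-2.22 ± 0.16, adjusted p = 0.00266), and its value in replicate 3 was the highest of the 6. Abcd2, a peroxisomal transporter, was at 3.26 to 4.11 TPM in WT_DEN and at 1, 1 and 2.58 in S302A_DEN (adjusted p = 0.0124). The Aldh3a2 call held under every alternative without replicate 3. The calls of Retsat, Acot1, Acot3, Acot4 and Abcd2 ended without S302A_DEN replicate 2, and those of Acot1 and Acot3 under median-of-ratios scaling (adjusted p up to 0.257).

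Promoters of this list were searched for the PPAR response element, a direct repeat taken here as GGNCA and AGGNCA with 1 base between them and read on both strands in the 250 bases before each start (first promoter listed for a symbol, RefSeq, GRCm38.p6). Of the 41 tested genes 29 had a promoter listed, and 2 of these held a match, Acot4 and Fabp1, against 0.67% of 27025 promoters. The matches, in capitals, are shown because Acot4 was among the genes called lower. The windows shown span 84038358 to 84038378 of chromosome 12 and 71199804 to 71199831 of chromosome 6. They are written along the plus strand, and both matches read as the repeat on the minus strand:

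Acot4: ccgaagcaTGACCTTTGGCCg

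Fabp1: acaatcacTGACCTATGGCCtatatctg

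Fabp1, the abundant liver fatty acid carrier, stood at 18706, 17843 and 16954 TPM in WT_DEN and at 13145, 8948 and 3385 in S302A_DEN, with no overlap, but it did not pass (adjusted p = 0.116). Cyp4a10 and Cyp4a14 were not among the genes with a match in this window.

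**Figure D2:**
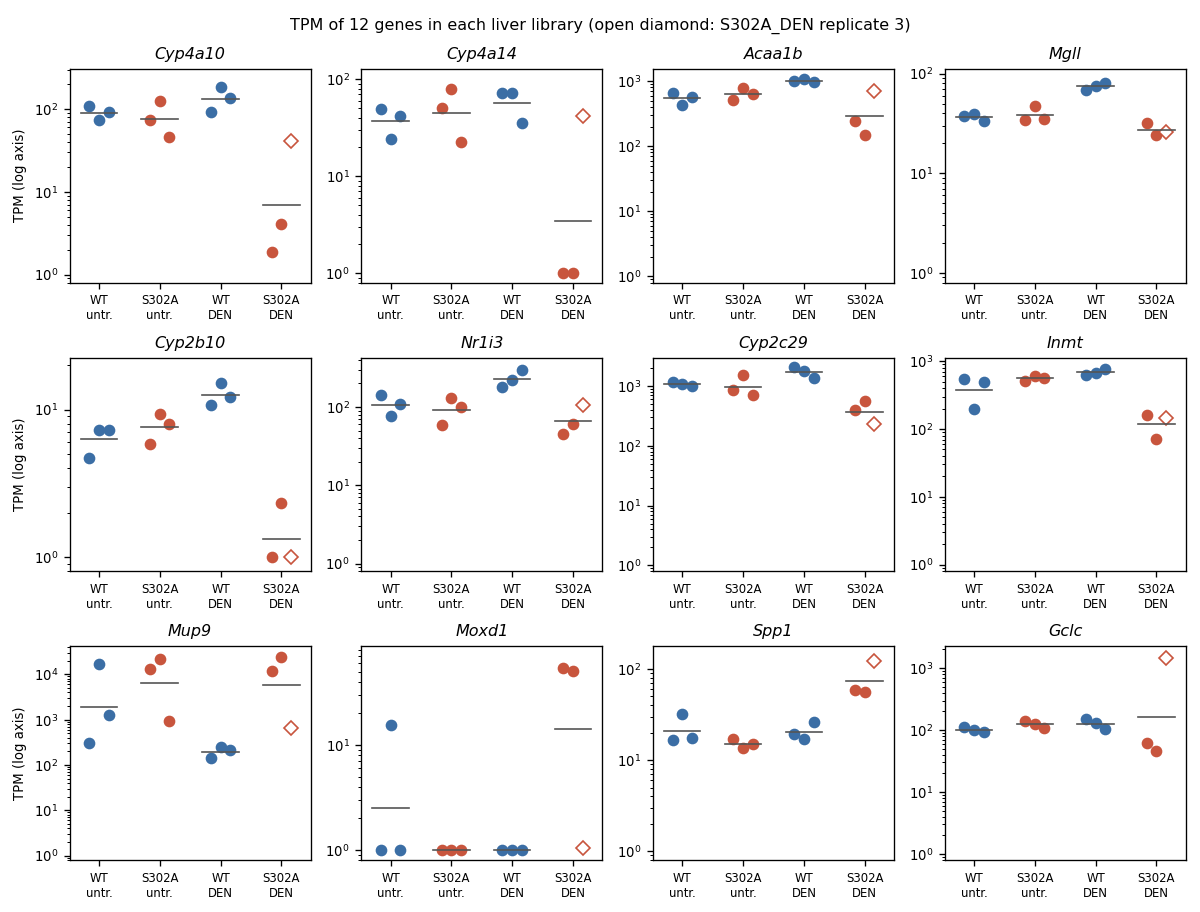
TPM on a log axis (y axis) of 12 genes in each of the 12 libraries, grouped by genotype and treatment (x axis; untr., untreated). Filled circles are libraries, the open diamond is S302A_DEN replicate 3 and the line is the geometric mean of 3. Cyp4a10 falls to 1.88 and 4.09 TPM in 2 knock-in libraries and 41.6 in the diamond, whereas Mgll, Cyp2b10, Cyp2c29 and Inmt are low in all 3.

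Genes of fatty acid and triglyceride synthesis also stood lower, all 22 tested without replicate 3 (median -0.88) and 21 of 22 with it (median -0.64). Over all genes 9120 of 11558 were lower without replicate 3 and 4666 with it. Of the 22 listed genes 4 passed downward without replicate 3 (beside 3.53% of all genes) and 1 under median-of-ratios scaling (beside 1.19%). Over all 6 libraries 10 of 22 lay below every wild-type value, beside 6.49% of all genes. Dgat2, which completes triglyceride, stood at 234, 256 and 295 TPM in WT_DEN and at 152, 127 and 152 in S302A_DEN (-0.90 ± 0.16, adjusted p = 0.0329). Thrsp, a lipogenic regulator, stood at 816, 842 and 1213 against 424, 159 and 59.7 (-1.85 ± 0.39, adjusted p = 0.0495), lowest in replicate 3. Elovl6, a fatty acid elongase, stood at 43.8, 26.8 and 28.7 against 15, 10.4 and 20.2 TPM (-1.31 ± 0.25, adjusted p = 0.0405). Fads1, a desaturase, stood at 198, 218 and 215 against 134, 98.1 and 149 TPM (-0.87 ± 0.17, adjusted p = 0.0417). No group overlapped for these 4 genes. Each of the 4 calls ended on leaving out single libraries, S302A_DEN replicate 2 among them (adjusted p up to 0.288), and those of Dgat2, Thrsp and Fads1 under median-of-ratios scaling.

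On the lipid droplet, 3 of 16 listed genes passed downward (beside 3.53% of all genes) and 0 upward. After median-of-ratios scaling 1 passed downward (beside 1.19%). Mgll, monoacylglycerol lipase, stood at 68.8, 75.1 and 80.8 TPM in WT_DEN and at 32.3, 24.2 and 25.7 in S302A_DEN (-1.39 ± 0.17, adjusted p = 0.0125). Its 3 knock-in values lay together, replicate 3 included, and below all untreated values (33.2 to 47.4 TPM). Fitm1, which helps droplets bud from the endoplasmic reticulum, stood at 53.8, 37.2 and 52.1 against 18.6, 7.58 and 8.12 (-1.89 ± 0.35, adjusted p = 0.0337). Pklr, the liver pyruvate kinase of glycolysis, stood at 231, 154 and 148 against 73.8, 48.5 and 23.8 TPM (-1.52 ± 0.26, adjusted p = 0.0297). These calls ended without S302A_DEN replicate 2 or WT_DEN replicates 2 or 3 (adjusted p up to 0.234), and that of Fitm1 under median-of-ratios scaling.

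Drug and toxicant metabolism formed the next group. CAR and PXR, encoded by Nr1i3 and Nr1i2, are nuclear receptors that induce cytochromes of the Cyp2b, Cyp2c and Cyp3a families. Of 26 tested genes of xenobiotic metabolism 25 were lower without replicate 3 (median -1.06), against 9120 of 11558 over all genes. Of the 26 genes 13 passed downward and 1 upward, beside 3.53% and 0.606% of all genes. With replicate 3 the count was 16 lower and 10 higher (median -0.39), and 0 passed. Under median-of-ratios scaling 4 passed downward and 1 upward, beside 1.19% and 0.796% of all genes.

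Nr1i3 stood at 182, 223 and 298 TPM in WT_DEN and at 45.4, 60.6 and 106 in S302A_DEN (-2.11 ± 0.23, adjusted p = 0.0101), without overlap. Cyp2b10, the classical CAR target (chromosome 7, 25897620 to 25926624, plus strand), stood at 10.8, 15.1 and 12.1 TPM against 1, 2.33 and 1. Its log2 difference was -2.39 ± 0.26 without replicate 3 (adjusted p = 0.00863) and -2.51 ± 0.33 with it (adjusted p = 0.0524). In untreated livers it stood at 4.70 to 7.29 TPM in WT_Ctrl and at 5.88 to 9.30 in S302A_Ctrl, so the DEN-treated wild type lay above and the DEN-treated knock-in below every untreated library. The Nr1i3 call ended without S302A_DEN replicate 1 or 2 and with quantile normalization (adjusted p up to 0.113), and the Cyp2b10 call without S302A_DEN replicate 2 (0.0657).

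Of 13 tested Cyp2c genes, a cluster of near-identical copies on chromosome 19 whose single values are uncertain, 11 were lower and 7 passed downward (1 under median-of-ratios scaling). This list, too, was added after the values were seen, and Cyp2c29, Cyp2c37 and Cyp2c54 were also counted under xenobiotic metabolism. Over all genes 9120 of 11558 were lower and 3.53% passed downward (1.19% scaled). Cyp2c29 stood at 2039, 1755 and 1341 TPM in WT_DEN and at 394, 559 and 234 in S302A_DEN (-1.84 ± 0.23, adjusted p = 0.013). Cyp2c54 stood at 330.2, 364 and 347 against 50.3, 101 and 34.3 (-2.26 ± 0.27, adjusted p = 0.0125). Cyp2c37 stood at 408, 259 and 299 against 20.6, 74.9 and 33.9 TPM (-2.97 ± 0.48, adjusted p = 0.0274). For Cyp2c37 the untreated knock-in livers were low as well, at 46.6, 93.3 and 46.4 TPM against 248, 374 and 448 in WT_Ctrl, without passing there (log2 difference -2.54, adjusted p = 0.561). Cyp2c38 stood at 41.4, 22.9 and 33.7 TPM in WT_DEN and at 5.56, 4.36 and 90.4 in S302A_DEN, low in replicates 1 and 2 and highest in replicate 3 (-2.47 ± 0.26, adjusted p = 0.00762). On leaving out WT_DEN replicate 1 the calls of Cyp2c29, Cyp2c54 and Cyp2c37 ended (adjusted p up to 0.11), as they did under median-of-ratios scaling. The Cyp2c38 call ended without S302A_DEN replicate 1 or 2 (adjusted p up to 0.149).

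Carboxylesterases, which hydrolyse esters of drugs and lipids and are also close copies, followed, again from a list added after the values were seen. Of 12 tested 10 were lower, near the share of all genes (9120 of 11558), and 5 passed downward, 4 under median-of-ratios scaling. Over all genes 3.53% passed downward (1.19% scaled). Ces1d stood at 446, 877 and 839.5 TPM in WT_DEN and at 140.0, 70.6 and 297 in S302A_DEN (-2.78 ± 0.37, adjusted p = 0.0157). Ces1e stood at 247, 244 and 216 against 77.9, 56.1 and 26.8 (-1.82 ± 0.18, adjusted p = 0.00583), and Ces1f at 285, 337 and 315 against 129.9, 68.6 and 78.8 (-1.71 ± 0.26, adjusted p = 0.0221). All 3 were without overlap over the 6 libraries. Each call ended without S302A_DEN replicate 2, those of Ces1d also without replicate 1 and of Ces1f without any 1 of WT_DEN replicates 1 to 3 (adjusted p up to 0.181).

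Methyl group metabolism came next. Of 18 listed one-carbon and methyltransferase genes 16 were lower without replicate 3, against 9120 of 11558 over all genes. Of the 18 genes 6 passed downward and 1 upward, beside 3.53% and 0.606% of all genes. After median-of-ratios scaling 2 passed downward and 1 upward, beside 1.19% and 0.796%. Inmt, a methyltransferase of indoles and thioethers (chromosome 6, 55170626 to 55175043, minus strand), stood at 619, 679 and 767 TPM in WT_DEN and at 161, 70.0 and 144 in S302A_DEN. Its 3 knock-in values lay below all 9 other libraries (198 TPM at the lowest). The log2 difference was -2.68 ± 0.32 without replicate 3 (adjusted p = 0.0125) and -2.53 ± 0.34 with it (adjusted p = 0.0524). Gnmt, the main hepatic user of S-adenosylmethionine, stood at 2333, 2293 and 2463 against 1028, 919.6 and 723 TPM (-1.28 ± 0.15, adjusted p = 0.0117). Ahcy, which clears the product of methylation, stood at 1017, 1309.6 and 1454 against 635, 488 and 515 (-1.16 ± 0.21, adjusted p = 0.0326). On leaving out S302A_DEN replicate 2 all 3 calls ended, and the Ahcy call also under median-of-ratios scaling (adjusted p up to 0.236).

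In bile acid synthesis and transport 6 of 18 genes passed downward and 1 upward, and 2 and 0 after median-of-ratios scaling. The shares of all genes were 3.53% and 0.606%, and 1.19% and 0.796% after scaling. Abcc3, an exporter on the blood side of hepatocytes, stood at 48.1, 50.5 and 46.3 TPM in WT_DEN and at 16.4, 12.8 and 151 in S302A_DEN (-1.67 ± 0.16, adjusted p = 0.00553). Akr1d1, a reductase of bile acid synthesis, stood at 98.7, 81.8 and 110.1 against 37.9, 22.6 and 169 (-1.68 ± 0.24, adjusted p = 0.019). For both genes replicates 1 and 2 lay lowest and replicate 3 highest of the 6. Cyp8b1, which sets the share of cholic acid, stood at 239.9, 255 and 247 against 145, 119 and 156 TPM (-0.90 ± 0.14, adjusted p = 0.0261), without overlap. Each call ended without S302A_DEN replicate 2 (adjusted p up to 0.234), and that of Cyp8b1 under median-of-ratios scaling.

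The urea cycle gene Asl stood at 449, 619 and 707 TPM in WT_DEN and at 246, 215 and 253 in S302A_DEN (-1.34 ± 0.21, adjusted p = 0.0245), and the collectin gene Mbl2 at 591, 550.5 and 491 against 243, 259.9 and 402 (-1.11 ± 0.15, adjusted p = 0.0148). Egr1, an immediate early transcription factor, stood at 9.54, 8.96 and 9.93 against 2.74, 2.82 and 9.43 (-1.47 ± 0.16, adjusted p = 0.00832), with replicate 3 at the wild-type level. These 3 calls ended without S302A_DEN replicate 2 (adjusted p up to 0.215), and those of Asl and Mbl2 under median-of-ratios scaling.

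**Figure D3:**
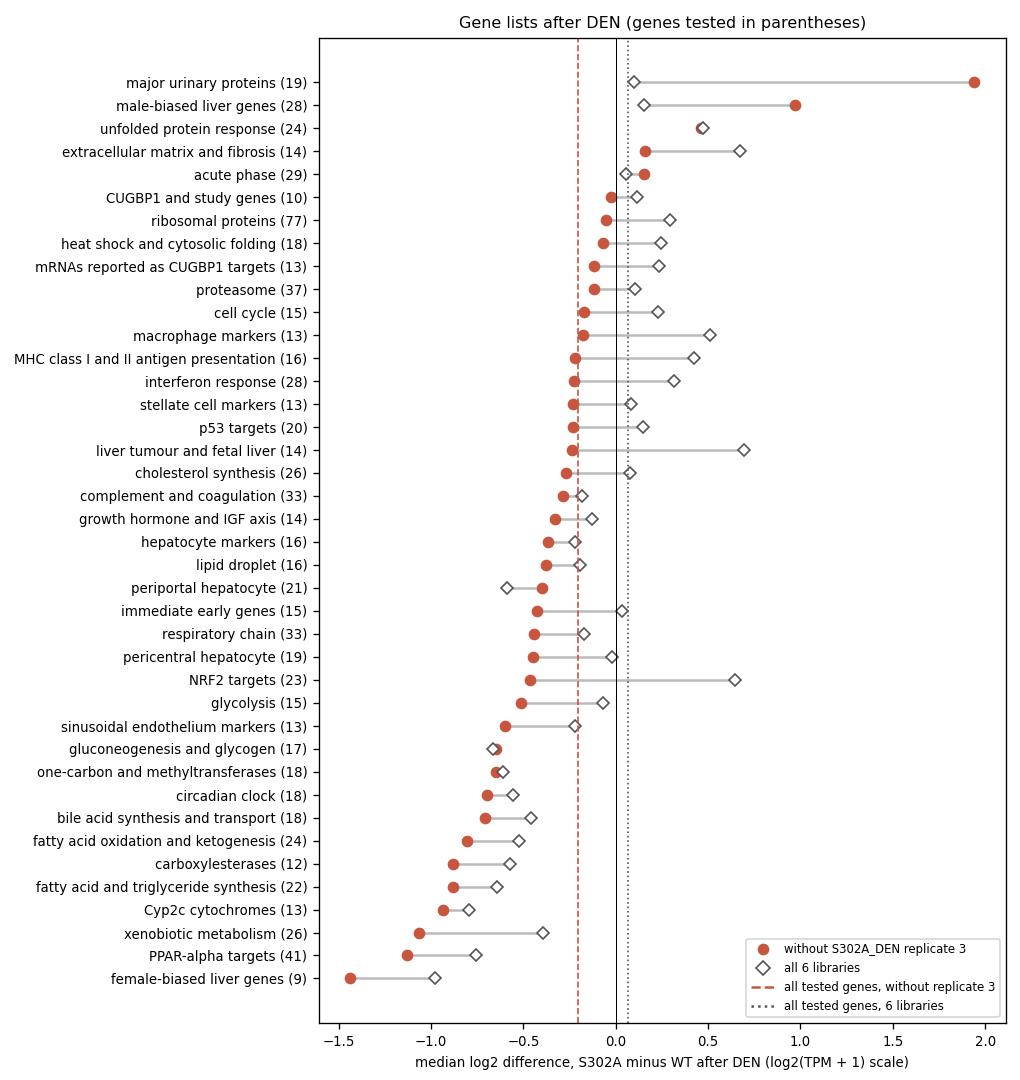
Median log2 difference between S302A_DEN and WT_DEN (x axis) of each gene list with at least 9 tested genes (y axis, number of genes in parentheses). Red circles leave out S302A_DEN replicate 3, open diamonds include it, and the dashed and dotted lines are the medians of all tested genes, -0.21 and 0.06; the xenobiotic list moves from -1.06 to -0.39 and the NRF2 targets from -0.46 to 0.64.

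Higher in S302A_DEN replicates 1 and 2 were genes that male liver expresses more than female liver under pulses of growth hormone. Of 28 male-biased genes 23 were higher (median 0.97) and 10 passed upward, beside 0.606% of all genes, with 0 downward. With replicate 3 the count was 17 higher and 11 lower (median 0.15), 0 passed, and replicate 3 lay below both other knock-in replicates in 23 of 28. Under median-of-ratios scaling 6 passed upward, beside 0.796% of all genes. Part of this list was made up of Mup genes, near-identical copies described below. Mup2, Mup10 and Mup17 were among the calls without replicate 3, so the calls were not independent. Of 9 female-biased genes 8 were lower and 5 passed downward, beside 3.53% of all genes. Of these 5 calls 4 (Cyp4a10, Cyp4a14, Acot3 and Abcd2) were also on the list of PPAR-alpha targets and the other was Cyp2a4.

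Major urinary proteins, pheromone carriers made in quantity by male liver, held the 4 largest rises. They are encoded by a cluster of near-identical genes on chromosome 4, so that single values are uncertain and the members are not independent. Mup9 stood at 145, 248 and 209.8 TPM in WT_DEN and at 12193, 24645 and 660.2 in S302A_DEN (6.46 ± 0.34 without replicate 3, adjusted p = 0.00109). Mup15 stood at 252, 1071 and 451 against 23249, 41977 and 606 (5.98 ± 0.56, adjusted p = 0.00553). Mup2 stood at 656, 3743 and 1788 against 69809, 77184 and 3291 TPM (5.49 ± 0.63, adjusted p = 0.0115). Replicates 1 and 2 were far above the wild type and replicate 3 was near it. Mup17 stood at 119, 255 and 153 against 3595, 8673 and 127 (5.06 ± 0.43, adjusted p = 0.00443), and Mup10 at 21.3, 10.8 and 14.1 against 262, 493 and 2.41 (4.51 ± 0.34, adjusted p = 0.00266). The spread within untreated livers was wide too. Mup9 stood at 311, 17242 and 1265 TPM in WT_Ctrl and at 13253, 21859 and 944 in S302A_Ctrl, so libraries of the same untreated genotype also lay far apart. The Mup9 call held under every alternative without replicate 3, and the other 4 ended without S302A_DEN replicate 2 (adjusted p up to 0.214). Of 19 tested Mup genes, a list added after the values were seen, 18 were higher and 8 passed upward, beside 0.606% of all genes. Replicate 3 lay below both other knock-in replicates in all 19. Their summed level was 35030 to 89654 TPM in WT_DEN, 193140 and 243989 in S302A_DEN replicates 1 and 2, and 15128 in replicate 3. In untreated livers it was 85321 to 224979 TPM in WT_Ctrl and 167512 to 179410 in S302A_Ctrl. Knock-in replicates 1 and 2 thus lay nearer the untreated sums than the DEN-treated wild type did. Without replicate 3 the interaction described below passed for 0 of the 19 (median 2.40).

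Hsd3b5, a male-specific steroid reductase, stood at 44.7, 43.2 and 39.9 TPM in WT_DEN and at 178, 113 and 8.03 in S302A_DEN (1.71 ± 0.21, adjusted p = 0.0125). Its untreated values were 116 to 172 TPM in WT_Ctrl and 151 to 222 in S302A_Ctrl, so knock-in replicates 1 and 2 lay near the untreated level and the wild type under it. Socs2, a feedback inhibitor induced by growth hormone, stood at 6.20, 7.05 and 4.28 against 32.7, 44.3 and 5.49 TPM (2.53 ± 0.23, adjusted p = 0.0055). Selenbp2, a selenium-binding protein, stood at 53.2, 258 and 150.0 against 820.5, 1541 and 205 (3.13 ± 0.61, adjusted p = 0.0405). The Hsd3b5 call held under every alternative without replicate 3. The Socs2 call ended without S302A_DEN replicate 2 (adjusted p up to 0.11), and the Selenbp2 call under most alternatives (up to 0.33).

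Among the other large rises, Moxd1, a monooxygenase-like protein (chromosome 10, 24223517 to 24302790, plus strand), stood at 1 TPM in all WT_DEN libraries and at 54.6, 50.8 and 1.03 in S302A_DEN (adjusted p = 7.73e-05). Fabp5, a fatty acid carrier little used by normal hepatocytes, stood at 28.5, 25.9 and 42.6 against 379.9, 193 and 25.8 (3.06 ± 0.32, adjusted p = 0.00762). Cxcl14, a chemokine, stood at 1.11, 1 and 1 against 25.9, 7.66 and 1.81 TPM (adjusted p = 0.0194). Replicate 3 shared the wild-type level of Moxd1 and Fabp5. The Moxd1 call held under every alternative without replicate 3. The Fabp5 call ended without S302A_DEN replicate 1 or 2, and the Cxcl14 call without any 1 WT_DEN replicate (adjusted p up to 0.0715).

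A second set of rises was shared by all 3 knock-in libraries. Replicate 3 lay above every wild-type library in 78.2% of all genes (39.5% after median-of-ratios scaling). Its place above the wild type here was therefore the common one and adds little to the other 2 libraries. Spp1, the secreted matrix protein osteopontin made by bile duct cells, macrophages and injured hepatocytes (chromosome 5, 104435118 to 104441050, plus strand), stood at 19.4, 16.9 and 25.9 TPM in WT_DEN and at 59.0, 55.3 and 122 in S302A_DEN (1.44 ± 0.20, adjusted p = 0.0172). Col5a2, a fibrillar collagen chain, stood at 1 in all WT_DEN libraries and at 3.40, 4.92 and 5.73 TPM (adjusted p = 0.0125). Cdh1, the epithelial cadherin, stood at 2.81, 4.31 and 3.01 against 10, 9.43 and 32.4 TPM (1.31 ± 0.20, adjusted p = 0.022). Gvin1, an interferon-inducible GTPase named after its values were seen, stood at 1.91, 1.10 and 1.08 against 6.44, 5.93 and 6.83 (1.62 ± 0.19, adjusted p = 0.0124). The Spp1 call ended without WT_DEN replicate 1 or 2, and the Cdh1 call without WT_DEN replicate 1 or 3. Those of Cdh1 and Col5a2 also ended with the replicate block. Without S302A_DEN replicate 2, which leaves a single knock-in library, the calls of Spp1, Col5a2, Cdh1 and Gvin1 ended. Without S302A_DEN replicate 1 those of Spp1, Cdh1 and Gvin1 did.

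Markers of other cells were read beside these genes. Of 11 bile duct markers 4 were tested and 1, Spp1, passed upward, while Krt7, Krt19, Epcam, Cldn7, Cftr and Muc1 were among those that did not reach the filter. The summed bile duct level was 32.8 to 42.9 TPM in WT_DEN, 78.6 and 72.6 in S302A_DEN replicates 1 and 2, and 160 in replicate 3, most of it Spp1 itself. Of 13 tested markers each, 0 macrophage, 0 stellate cell and 0 sinusoidal endothelial genes passed. Summed macrophage markers were 149 to 289 TPM in WT_DEN, 316 and 126 in S302A_DEN replicates 1 and 2, and 940 in replicate 3. Summed stellate cell markers were 147 to 177, 148 and 68.9, and 358 TPM in the same order. Sinusoidal endothelial markers were lower in 13 of 13 without replicate 3 (median -0.60, and -0.41 after median-of-ratios scaling), against 9120 of 11558 over all genes. Their sums were 101 to 141 TPM in WT_DEN, 84.9 and 61.9 in S302A_DEN replicates 1 and 2, and 153 in replicate 3. In untreated livers 13 of 13 were higher in the knock-in (median 0.12), against 3590 of 11558 over all genes. The part of these cell types in the genotype differences was not tested.

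The unfolded protein response, which restores protein folding in the endoplasmic reticulum, stood higher with and without replicate 3. Of 24 tested genes 18 were higher without it (median 0.46) and 21 with it (median 0.47), 12 lay above every wild-type value over all 6 libraries (beside 3.38% of all genes), and 0 passed in either fit. After median-of-ratios scaling the medians were 0.72 without replicate 3, where 1 gene passed upward, and 0.42 with it. Hyou1, a chaperone, stood at 55.8, 44.0 and 29.4 TPM in WT_DEN and at 77.8, 79.9 and 80.1 in S302A_DEN (0.90 ± 0.25, adjusted p = 0.0927). Creld2, a secreted stress protein, stood at 50.0, 37.3 and 23.4 against 76.2, 96.1 and 52.4 (1.26 ± 0.30, adjusted p = 0.0622). In untreated livers the list's median was -0.40.

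Targets of NRF2, the transcription factor that induces glutathione and quinone detoxification, changed sign as a list with the inclusion of replicate 3. Without replicate 3, 20 of 23 were lower (median -0.46), near the share of all genes (9120 of 11558), and 4 passed downward (beside 3.53%). Of the called genes Gsta2 and Ephx1 were also counted under xenobiotic metabolism. After median-of-ratios scaling 15 of 23 were lower (median -0.22) and 2 passed downward (beside 1.19%). With replicate 3, 22 of 23 were higher (median 0.64) and 0 passed, and after scaling 21 of 23 were higher (median 0.59). Gclc, which limits glutathione synthesis, stood at 152, 129.9 and 103 TPM in WT_DEN and at 62.8, 45.8 and 1448 in S302A_DEN (-1.23 ± 0.21 without replicate 3, adjusted p = 0.031; 0.35 ± 1.06 with it, adjusted p = 1). Gsta4, a glutathione transferase, stood at 122, 143 and 139 against 61.0, 49.2 and 1300.2 (-1.28 ± 0.16, adjusted p = 0.0125). Ephx1, the microsomal epoxide hydrolase, stood at 441, 393 and 349.9 against 215, 192 and 1493 TPM (-0.95 ± 0.16, adjusted p = 0.0288). In replicates 1 and 2 these genes lay under the wild type and in replicate 3 several-fold over it. Gsta2, whose sequence is shared with Gsta1, stood at 134, 57.7 and 71.9 TPM in WT_DEN and at 24.9, 15.2 and 1905 in S302A_DEN (-2.02 ± 0.36, adjusted p = 0.0329). All 4 calls ended without S302A_DEN replicate 2 (adjusted p up to 0.283), and those of Ephx1 and Gsta2 under median-of-ratios scaling.

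The cytochromes Cyp2a5 and Cyp2a4, close copies on chromosome 7, split the same way. Cyp2a5 stood at 463, 386 and 682 TPM in WT_DEN and at 62.0, 80.6 and 15026 in S302A_DEN (-2.79 ± 0.25 without replicate 3, adjusted p = 0.0055; -0.22 ± 1.70 with it, adjusted p = 1). Cyp2a4 stood at 142, 275 and 264 against 26.1, 55.2 and 2145 (-2.48 ± 0.38, adjusted p = 0.0231). Both calls ended without S302A_DEN replicate 1 or 2, and that of Cyp2a4 also under 7 other alternatives, median-of-ratios scaling and the 4-group fit among them (adjusted p up to 0.246).

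Promoters of the NRF2 targets were searched for the antioxidant response element, written as TGACNNNGC, on both strands of the same 250 bases. Of 19 genes with a listed promoter 4 held a match, against 10.1% of 27025 promoters. The windows, with the match in capitals, are written along the strand named, and the coordinates are those of the window. For Gclm, Prdx1 and G6pdx the match reads as the element on the opposite strand. The values of these genes, of which none passed, follow the windows:

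Gclm (chromosome 3, 122245414 to 122245440, plus strand): ctcccgggcGCACCGTCAactctcacg

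Prdx1 (chromosome 4, 116685457 to 116685483, plus strand): agggaaagcGCTGAGTCAtcccccgta

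G6pdx (chromosome X, 74428920 to 74428946, minus strand): ggcgggtcaGCTCAGTCAaagcacacg

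Ugdh (chromosome 5, 65435957 to 65435983, minus strand): cggagcccgTGACTTAGCtggagctga

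Gclm, the partner subunit of Gclc, stood at 102, 91.5 and 90.1 TPM in WT_DEN and at 73.7, 58.9 and 532 in S302A_DEN. Prdx1, a peroxidase, stood at 1082, 903 and 838 against 775, 729.6 and 2818. G6pdx, which supplies NADPH, stood at 3.07, 1.73 and 2.64 against 2.66, 1.15 and 20.4, and replicate 3 was the highest library for each of these genes. Ugdh, which makes UDP-glucuronate, stood at 98.1, 61.0 and 56.8 TPM in WT_DEN and at 84.5, 69.0 and 599 in S302A_DEN.

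Replicate 3 was set beside the calls made without it. Of the 408 lower calls it lay below every wild-type library in 183 (44.9%, against 9.44% of all genes), inside the wild-type range in 65 and above it in 160. After median-of-ratios scaling it lay below in 310 (76.0%, against 37.0% of all genes). The same wild-type libraries took part in the calls, so these shares are a description. Of the 70 higher calls it lay above every wild-type library in 42 (60.0%, against 78.2% of all genes) and, scaled, in 35 (50.0%, against 39.5%). The scatter of replicate 3 against the other knock-in libraries shows this spread. Genes low in all 3 knock-in libraries included Inmt, Cyp2b10, Mgll, Gnmt, Cyp2c29 and Ces1e. Genes low in 2 and high in the third included Aldh3a2, Abcc3, Cyp2a5, Gclc and Gsta4.

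**Figure D4:**
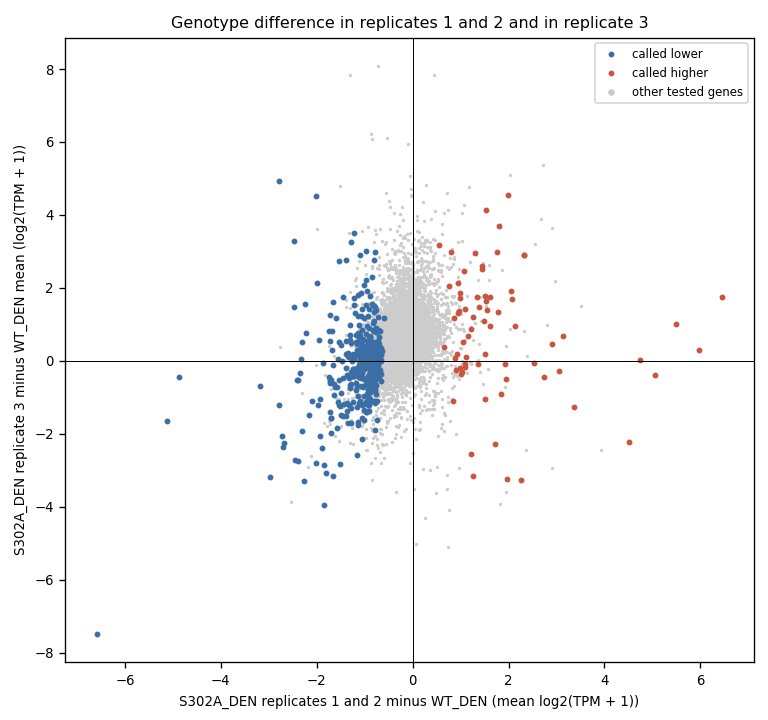
Log2(TPM + 1) of S302A_DEN replicates 1 and 2 minus WT_DEN (mean, x axis) against that of S302A_DEN replicate 3 minus the WT_DEN mean (y axis), one point per tested gene. Blue and red points are the 408 genes called lower and the 70 called higher without replicate 3; most grey points lie above 0 on the y axis, and of the blue points 183 belong to genes for which replicate 3 lay below every wild-type library.

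The untreated libraries allowed the same genotype comparison in samples that share none with the DEN comparison. There 0 of 11558 genes passed limma, 434 (3.75%) had an unadjusted p below 0.05, and the 4-group fit called 2. When the 119 genes at 1 value in all 6 untreated libraries were left out, 1 gene passed, Fam25c, at 68.6, 77.4 and 32.5 TPM in WT_Ctrl and 2.70, 1.97 and 3.92 in S302A_Ctrl. Of the 408 genes called lower after DEN 225 were lower in untreated knock-in livers (55.1%, against 68.9% of all genes), with a median difference of -0.03. The DEN-treated wild type lay above all 6 untreated libraries in 206 of the 408 (50.5%, against 18.4% of all genes). With S302A_DEN replicate 3 left aside, replicates 1 and 2 lay below the 9 other libraries in 226 of the 408 lower calls. That was 55.4%, against 9.42% of all genes. They lay above the 9 in 41 of the 70 higher calls (58.6%, against 2.07% of all genes). The choice of these genes by the DEN contrast fixes part of these 3 counts, which are a description.

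The difference between the genotype effects with and without DEN was tested itself, as an interaction. With 12 libraries 5 genes passed (0.0433%), namely AB343393, AB343394, AK220016, Gvin1 and Cyp2b10. Without S302A_DEN replicate 3, 73 passed (0.632%), of which 53 were more negative and 20 more positive after DEN. Of the 408 lower calls 51 were among them and of the 70 higher calls 19. In the list of fatty acid oxidation 7 of 24 passed, and in that of PPAR-alpha targets 17 of 41. The DEN values by which the calls and the PPAR-alpha list were chosen also enter the interaction, so these counts are a description. For Cyp4a10 the interaction was -4.87 on the log2 scale (adjusted p = 0.00266), and for Cyp2c37, low in the knock-in with and without DEN, it was -0.43 (adjusted p = 0.833). The interaction count lay between 22 and 127 on leaving out 1 further library.

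**Figure D5:**
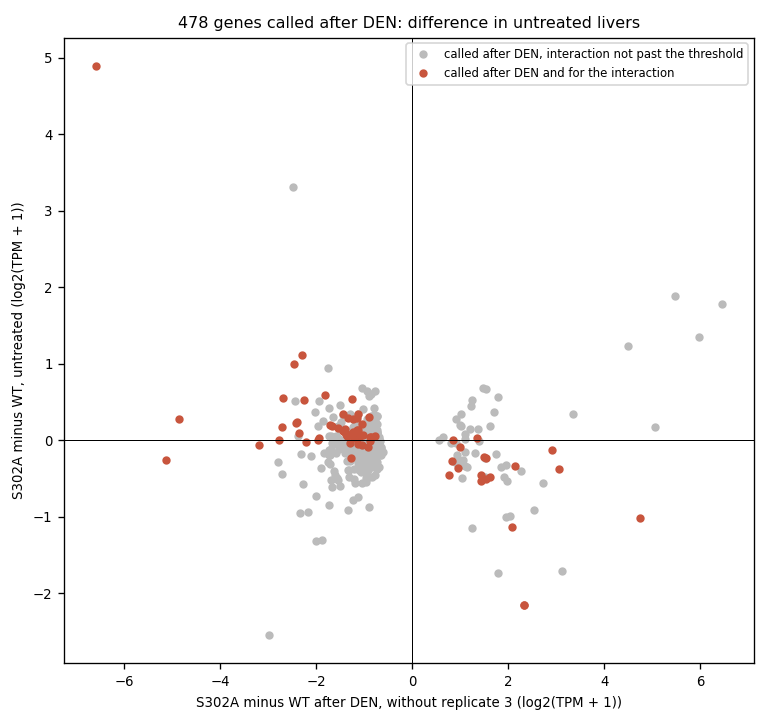
Log2 difference between knock-in and wild type after DEN without S302A_DEN replicate 3 (x axis) against that in untreated livers (y axis) for the 478 genes called after DEN. Red points are genes whose interaction also passed; the median of the 408 lower calls on the y axis was -0.03.

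Lists with few or no calls were as follows. Without replicate 3, 0 of 15 cell cycle genes, 0 of 28 interferon response genes, 0 of 37 proteasome genes, 0 of 77 ribosomal protein genes, 0 of 33 respiratory chain genes, 0 of 29 acute phase genes and 0 of 14 liver tumour and fetal liver genes passed, with medians of -0.44 to 0.15. The medians were -0.19 to 0.41 after median-of-ratios scaling, where 1 acute phase and 1 liver tumour and fetal liver gene passed upward (beside 0.796% of all genes). All 33 respiratory chain genes were lower without replicate 3, and 30 after scaling. Over all genes 9120 of 11558 were lower, and 5697 after scaling. Among 20 p53 targets 1 passed downward, and among 26 cholesterol synthesis genes 2 did, beside 3.53% of all genes. After scaling these counts were 0 and 1, beside 1.19%. Of 10 study genes around CUGBP1, gankyrin and hepatocyte identity 0 passed (1 upward after scaling, Celf1), and of 13 mRNAs reported as CUGBP1 targets 0 passed (median -0.12). With replicate 3, 0 cell cycle and 0 liver tumour and fetal liver genes passed, with medians of 0.23 and 0.69 (0.17 and 0.62 scaled). Replicate 3 lay above every wild-type library in 15 of 15 and 13 of 14, beside 78.2% of all genes. Summed cell cycle genes were 102 to 130 TPM in WT_DEN, 97.3 and 101 in S302A_DEN replicates 1 and 2, and 379 in replicate 3. Summed tumour and fetal liver genes were 330 to 452, 428 and 389, and 2528 TPM in the same order.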

How the data were processed

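RNA from 12 mouse liver samples, 3 in each of 4 groups taken from the labels, had been made into TruSeq libraries and sequenced on an Illumina HiSeq, per the labels' protocols. The authors deposited 1 TPM table per library (31253 symbols). The submitters' processing notes name kallisto and mm10, with versions not given in the sources used here. From the values, the lowest entry is 1. TPM keeps no read depth, so the depth and the counting error are unknown.

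Genes above 1 TPM in at least 3 of the 6 DEN libraries were tested (11558, of which 1281 carry clone-like or other symbols without a gene name). Differences are on the log2(TPM + 1) scale, which understates changes of low genes. They were fitted with limma 3.58.1 in R 4.3.3 (lmFit, eBayes with trend), with Benjamini-Hochberg adjustment over all 11558 genes and a threshold of 0.05. S302A_DEN against WT_DEN was fitted with 6 libraries and with 5, leaving out S302A_DEN replicate 3. The untreated libraries and the interaction were fitted separately. The scripts were tested on simulated data. Values for single genes with an adjusted p but no named fit are from the 5 libraries. The alternatives were 2 other pseudocounts, other filters, median-of-ratios and quantile scaling, leaving out abundant genes, array quality weights, a 4-group fit, a replicate block and leaving out each library.

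The members and the 47 gene lists were chosen with earlier results of these data known, and 4 further lists were added after the values were seen. Of the listed genes 26 were not found and 7 were found under older symbols. Named genes were the 10 largest rises and falls past the threshold, the 4 list members of smallest p at most, the study genes, and the 15 genes in which replicate 3 lay farthest above and below its group. AK220016, AB343393, AB343394, Ppara, Acot4, Fabp1, Gvin1, Fam25c and the genes with an antioxidant element were named after their values were seen. Gene positions are from GENCODE M21 (GRCm38), and promoter sequences from RefSeq (GRCm38.p6).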

Additional observations from a re-analysis of the deposited data

Results flagged for a closer look

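For the genes below, the knock-in effect after DEN differed from that in untreated livers by a test of the difference itself (limma interaction, Benjamini-Hochberg adjusted p below 0.05). Values are the effect after DEN minus the untreated effect on the log2 scale, without S302A_DEN replicate 3 where not said otherwise. Of 65 genes tested and named in the text 29 passed in this way, and 5 passed with all 12 libraries. Over all genes 0.632% and 0.0433% passed. Many of the named genes were chosen by their difference after DEN, and the interaction reuses those values. The share of named genes that passed is therefore a description.

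In lipid oxidation and its PPAR-alpha targets the difference was -4.87 for Cyp4a10, -5.14 for Cyp4a14, -2.63 for Acaa1b and -1.71 for Ehhadh. It was -3.13 for Acot1, -2.89 for Acot3, -2.44 for Acot4, -1.96 for Retsat, -2.20 for Aldh3a2 and -1.80 for Abcd2. In triglyceride turnover it was -1.20 for Dgat2 and -1.47 for Mgll.

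Among genes of detoxification, transport and methylation it was -2.63 for Cyp2b10 (-2.75 with 12 libraries), -3.47 for Cyp2c38, -2.78 for Ces1d, -2.41 for Ces1e, -1.85 for Abcc3, -3.24 for Inmt, -1.50 for Gclc and -1.05 for Gsta4.

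More positive after DEN were Moxd1 (5.76), Fabp5 (3.44), Cxcl14 (3.04), Spp1 (1.89), Col5a2 (1.31) and Gvin1 (2.10, and 2.14 with 12 libraries). AB343393 and AB343394 differed by 4.47 (4.67 with 12 libraries), and AK220016 by -11.48 (-11.78 with 12 libraries). For these last 3 symbols the genotype order was opposite in treated and untreated livers.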

How the results depend on the processing

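With 6 libraries the 4 calls after DEN became 0 without a filter (of the symbols that vary), 12 at a filter of 5 TPM, 13 with median-of-ratios scaling, 8 with quantile normalization, 8 without the 20 most abundant genes, 48 in the 4-group fit and 1632 with array quality weights. Leaving out 1 library gave 1 to 478. Without S302A_DEN replicate 3, the 478 calls became 206 without a filter, 229 with median-of-ratios scaling (92 higher, 137 lower), 198 with quantile normalization (86 higher, 112 lower), 310 without the 20 most abundant genes (78 higher, 232 lower) and 738 in the 4-group fit. Leaving out 1 more library gave 19 to 154. In untreated livers the 0 calls became 2 at 5 TPM, 2 in the 4-group fit, 1 when genes at 1 value were left out (chosen after seeing the data), and 0 to 10 on leaving out 1 library, the 10 without WT_Ctrl replicate 3. The 5 interaction calls with 12 libraries became 11 with median-of-ratios scaling, 8 with quantile normalization, 541 with array quality weights and 3 to 73 on leaving out 1 library. The 73 with 11 libraries became 199 with array quality weights and 22 to 127 on leaving out 1 library.

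The replicate block gave 197 calls with 6 libraries and 113 with 5. The labels give the replicates numbers but no pairing. In deviations from group means, same-numbered WT_DEN and S302A_DEN libraries correlated at -0.12, 0.18 and -0.02. Differently numbered ones spanned -0.21 to 0.19. Same-numbered WT_Ctrl and S302A_Ctrl libraries correlated at -0.01, 0.20 and 0.34. Differently numbered ones spanned -0.27 to 0.05, so the same-numbered pairs of replicates 2 and 3 stood above them. Same-numbered and other DEN pairs spread alike. As the untreated and DEN pairs differ in this, the values cannot decide whether the numbers stand for a pairing or batch. That was not tested. With S302A_DEN replicate 3 the differences of Gclc (0.35), Gsta4 (0.24), Ephx1 (0.0102) and Gsta2 (0.16) turned positive. Replicate 3 lay above both others in 4794 genes after median-of-ratios scaling, against 10186 before. Of 56 named calls made without replicate 3, 6 held under every alternative run on those 5 libraries, and 47 ended without S302A_DEN replicate 2. The cause was not tested. Depth is unknown, and low genes near 1 TPM are limited by the lowest listed value.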
